A study of Mus musculus with 4 samples.

Results

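Prss53, Rnase4, Ttc28, Ak1, Rab25 and Srxn1 were followed across single cells of mouse pancreatic islets, and together they were 6 of the 38457 mouse genes in the count tables. They were chosen because their summed levels in beta-like cells, the insulin producers, were high in the same 2 of 4 libraries, so their beta-like levels per library are given as a description with no test. The islets came from mice labelled Sin3A mutant or WT, and each genotype had 2 libraries, which the series describes as biological replicates. Cells were captured with inDrop, a droplet method that counts tags from the 3′ ends of messenger RNAs. Every title ends in 1 of 2 numbers, each found once per genotype and called A and B here, and the libraries are named after their labels as mutant A, WT A, mutant B and WT B. The labels give neither the allele, the cells in which Sin3a was changed, the age of the mice nor whether several mice were pooled.

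The 6 genes belong to different protein families. Prss53 encodes a trypsin-like serine protease of the polyserase kind, and Rnase4 a secreted ribonuclease that shares its locus with angiogenin (Ang). Ttc28 encodes a large tetratricopeptide repeat protein described at the spindle midzone of dividing human cells. Ak1 is the cytosolic adenylate kinase, which interconverts adenine nucleotides, Rab25 is a small GTPase of the Rab11 group that acts in recycling endosomes of epithelia, and Srxn1, a known Nrf2 target, reduces over-oxidised peroxiredoxins.

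Sin3a, which scaffolds a corepressor complex with histone deacetylases, was at 42.6 CPM (counts per 1000000) in mutant A against 25.7 CPM in WT A, and at 17.7 CPM in mutant B against 41.0 CPM in WT B, in beta-like cells. The library labelled mutant thus held more Sin3a tags than the library labelled WT within A and fewer within B. The signs were the same in other cell classes. The log2 ratios of mutant to WT within A and within B were 1.82 and -1.23 in cycling beta-like and 0.60 and -1.04 in alpha-like cells. They were 1.16 and -0.58 in delta-like, 0.71 and -1.28 in pp-like and 0.61 and -0.94 in endothelial-like cells. In each of these but cycling beta-like cells a 95% counting interval included 0. The 6 genes below have this same order. Which part of Sin3a was changed is not stated, and a 3′ tag outside it checks nothing, so every direction below is that of the labels. After cell filters 1144, 1207, 2382 and 1793 cells remained, in the order mutant A, WT A, mutant B, WT B, which is used for all runs of 4 values. Beta-like cells numbered 476, 457, 706 and 592, with 4715877, 6223389, 4626129 and 4019694 counts in all. They lay almost wholly in 1 cluster per library, with 434, 416, 666 and 562 cells in the main one. Between 12 and 42 cell barcodes were shared by each pair of libraries.

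The 6 genes lie on 5 chromosomes (GENCODE annotation of GRCm38). Prss53 (ENSMUSG00000044139) lies on chromosome 7 from 127885841 to 127890970 on the minus strand, with 11 exons, and its last exon overlaps the end of Zfp646 on the other strand. Rnase4 (ENSMUSG00000021876) has 2 exons on the plus strand of chromosome 14, between 51091077 and 51106151, and Ang overlaps it on the same strand, outside its last exon. Ttc28 (ENSMUSG00000033209) has 24 exons on the plus strand of chromosome 5, between 110879803 and 111289780. Ak1 (ENSMUSG00000026817, 6 exons) and Srxn1 (ENSMUSG00000032802, 2 exons) are both on the plus strand of chromosome 2, from 32621758 to 32635058 and from 152105516 to 152111376. Rab25 (ENSMUSG00000008601, 5 exons) is on chromosome 3 from 88542029 to 88548300 on the minus strand.

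Because the genes moved together from library to library, the 250 bases before their RefSeq starts (GRCm38.p6) were searched together with the 50 bases after for 6 motifs on both strands. The stretches before the start are shown 5′ to 3′ for the 3 members with most counts and for Rab25, which held the rarest of the motifs found, with matches in capitals. They are Prss53 at chr7:127890971-127891220 (minus strand), Rnase4 at its first start at chr14:51090827-51091076 (plus), Ttc28 at chr5:110879553-110879802 (plus) and Rab25 at chr3:88548280-88548529 (minus).
Prss53: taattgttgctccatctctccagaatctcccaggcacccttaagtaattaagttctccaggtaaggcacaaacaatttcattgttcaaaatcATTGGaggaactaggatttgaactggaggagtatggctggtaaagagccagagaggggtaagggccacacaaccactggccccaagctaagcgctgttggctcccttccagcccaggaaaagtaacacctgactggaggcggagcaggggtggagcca
Rnase4: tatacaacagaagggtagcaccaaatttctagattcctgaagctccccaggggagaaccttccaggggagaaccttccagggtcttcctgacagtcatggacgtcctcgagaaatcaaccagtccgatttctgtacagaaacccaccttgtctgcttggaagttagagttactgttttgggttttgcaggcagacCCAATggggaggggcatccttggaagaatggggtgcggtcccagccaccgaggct
Ttc28: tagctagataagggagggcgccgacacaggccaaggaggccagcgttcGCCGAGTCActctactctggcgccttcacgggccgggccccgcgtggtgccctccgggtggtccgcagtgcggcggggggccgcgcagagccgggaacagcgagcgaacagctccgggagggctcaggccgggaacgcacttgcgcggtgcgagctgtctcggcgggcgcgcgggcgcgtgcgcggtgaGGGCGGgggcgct
Rab25: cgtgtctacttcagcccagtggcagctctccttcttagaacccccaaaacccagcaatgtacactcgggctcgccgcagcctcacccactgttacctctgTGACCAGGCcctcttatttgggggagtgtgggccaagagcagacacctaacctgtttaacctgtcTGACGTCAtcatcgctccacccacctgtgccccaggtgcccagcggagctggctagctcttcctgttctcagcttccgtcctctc
No motif of the 6 was found in all 6 genes. The antioxidant response element core TGACNNNGC was in the windows of Ttc28, Rab25 and Srxn1 and in 3 of the 4 windows of Ak1, and 12.4% of all 32851 RefSeq windows of 300 bases hold it. In Srxn1 and in window 3 of Ak1 the match lay after the start. The share is per window, and a gene with 4 windows has more room for a match. The cAMP response element TGACGTCA, 85 bases before the start of Rab25, occurs in 1.79% of all windows, and it overlapped no other motif there. CCAAT was found in Prss53 and Rnase4 (37.4% of all windows) and GGGCGG in Rnase4, Ttc28 and Srxn1 (35.7%). In Rnase4 GGGCGG lay after the start, outside the stretch shown. TGCTGA, the core bound by Maf factors, and CACGTG, the E-box, were found in none of the windows of these genes and are in 19.5% and 7.15% of all windows. A match is a string of letters, not a bound site.

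In beta-like cells each of the 6 genes was higher in mutant A than in WT A and lower in mutant B than in WT B, with log2 ratios of at least 1.88 within A and at most -2.17 within B. Prss53 stood at 419 CPM in mutant A against 108 CPM in WT A, and at 41.3 CPM in mutant B against 319.9 CPM in WT B, from 1977, 673, 191 and 1286 counts. Rnase4 was at 202 CPM in mutant A against 32.0 CPM in WT A, and at 63.3 CPM in mutant B against 383 CPM in WT B. For Ttc28 the levels were 220.3 CPM in mutant A against 51.1 CPM in WT A and 42.4 CPM in mutant B against 293.8 CPM in WT B. In none of these 3 genes did the 95% Poisson intervals of mutant A or WT B, which cover counting error only, overlap those of WT A or mutant B.

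The less abundant members had the same order of pairs. Ak1 was at 62.3 CPM in mutant A against 13.8 CPM in WT A, and at 11.9 CPM in mutant B against 94.5 CPM in WT B. Rab25 was at 48.6 CPM in mutant A against 13.2 CPM in WT A, and at 17.3 CPM in mutant B against 79.6 CPM in WT B. Srxn1 was at 43.0 CPM in mutant A against 9.96 CPM in WT A, and at 20.3 CPM in mutant B against 91.3 CPM in WT B, from 203, 62, 94 and 367 counts. WT B was the highest library for 5 of the 6 genes and mutant A for Prss53 alone, while the lowest was WT A for Rnase4, Rab25 and Srxn1 and mutant B for Prss53, Ttc28 and Ak1.

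**Figure D1:**
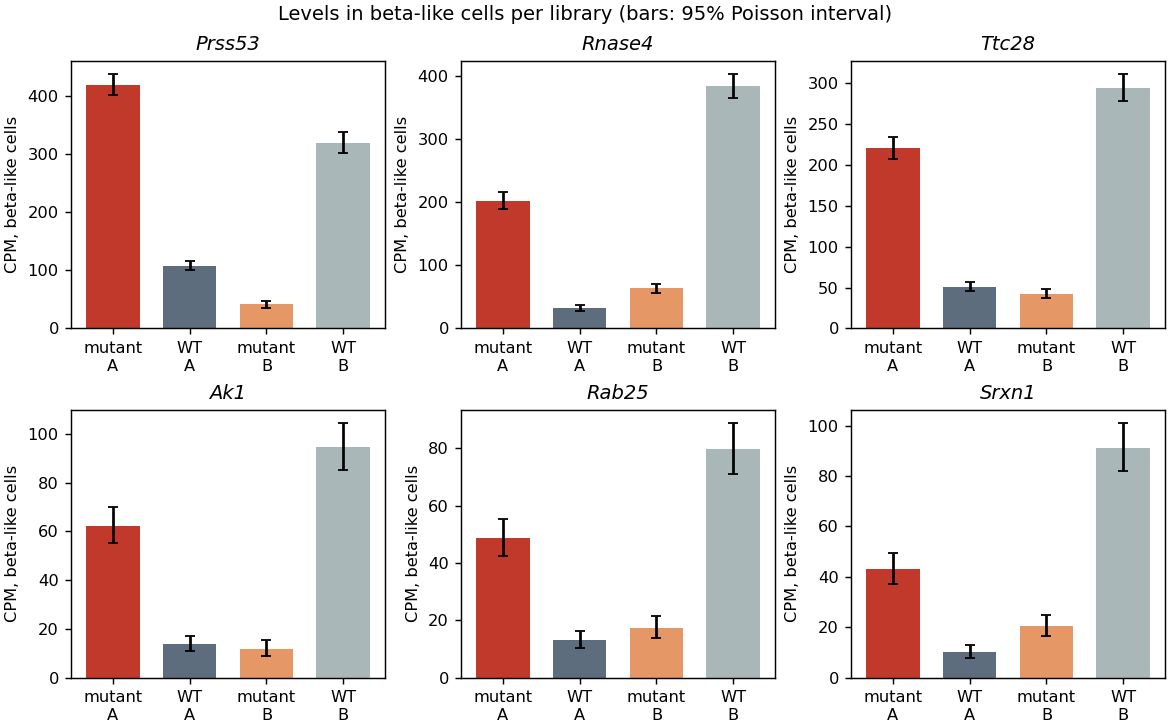
CPM (y axis, from 0) of each gene in beta-like cells of the 4 libraries, 1 panel per gene, with 95% Poisson intervals as error bars. In all 6 panels mutant A and WT B stand above WT A and mutant B.

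On the log2 scale the ratios of mutant to WT were 1.95 within A and -2.95 within B for Prss53, 2.66 and -2.60 for Rnase4, and 2.11 and -2.79 for Ttc28. They were 2.17 and -2.99 for Ak1, 1.88 and -2.20 for Rab25, and 2.11 and -2.17 for Srxn1. Of the 9933 genes that reached 20 counts per library, 37.8% were higher within A and lower within B relative to the median gene, which is called crossed here, and 3.22% were so by at least 2-fold both times, as all 6 members were by their choice. With opposite signs the 2 libraries of a label averaged out: Prss53 was at 230.3 ± 267 CPM in the mutant libraries and 214 ± 150 CPM in the WT libraries (SD, n = 2 each).

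Within A and within B, other properties of the libraries differed along with these levels, although not in the same order over all 4 libraries. Insulin transcripts (Ins1 and Ins2) made up 29.0% of beta-like counts in mutant A against 15.2% in WT A, and 4.30% in mutant B against 8.54% in WT B. The median mitochondrial share per cell was 3.31% in mutant A against 5.39% in WT A, and 9.92% in mutant B against 6.67% in WT B. With insulin transcripts left out of the totals the log2 ratios of the 6 genes ran from 2.14 to 2.92 within A and from -3.06 to -2.23 within B. In cells with at most 10% mitochondrial counts they ran from 1.93 to 2.67 within A and from -3.06 to -1.96 within B. Median counts per beta-like cell were 9755.5, 13108, 6190 and 6321, lower in the mutant library both times. The part of the insulin and mitochondrial shares in the levels was not tested.

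The difference lay in how many cells held a tag as well as in the sums. After each cell was thinned to 3000 counts, which left out 50, 19, 78 and 42 shallower cells, Prss53 was seen in 61.5% of cells in mutant A against 22.6% in WT A, and in 10.8% in mutant B against 55.8% in WT B. Rnase4 was seen in 37.3% of cells in mutant A against 8.22% in WT A, and in 13.7% in mutant B against 66.0% in WT B. Before thinning, Prss53 was seen in 82.8%, 52.7%, 19.7% and 74.3% of beta-like cells. In alpha-like cells, which carry little Prss53, 9 of 82 thinned cells of mutant A held a Prss53 tag, none of 116 in WT A, 4 of 253 in mutant B and 9 of 317 in WT B. A count of 0 of 116 cells allows up to 3.13% of thinned cells with a tag (exact binomial 95% interval). It limits neither expression nor detection before thinning, where alpha-like cells of WT A held 7 Prss53 counts. No few cells carried the sums of the high libraries: the 3 cells with most counts held 3.24% of Prss53 counts in mutant A and 2.47% of Rnase4 counts in WT B. In mutant B a single beta-like cell held 37 of the 293 Rnase4 counts, and without its 3 highest cells the level there was 53.3 CPM.

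A few beta-like cells of each library fell into the main cluster of the other library of its number. Their levels of Prss53, Rnase4 and Ttc28 lay nearer those of their own library than those of that cluster, with Ttc28 in between. None of the 6 genes was among the 2000 variable genes used for clustering. The 34 cells of mutant A in the main WT A cluster held 367 CPM of Prss53 (95% Poisson interval 282 to 469.6) and 221 CPM of Rnase4, against 108 and 30.9 CPM in the 416 WT A cells of that cluster. Conversely, 25 cells of WT A in the main mutant A cluster held 123 CPM of Prss53 and 57.9 CPM of Rnase4, while the 434 mutant A cells there held 421 and 202 CPM. For B, 16 cells of mutant B in the main WT B cluster held 37.1 CPM of Prss53 from 4 counts and 46.4 CPM of Rnase4 from 5 counts, against 322 and 382 CPM in the 562 WT B cells there. The 26 cells of WT B in the main mutant B cluster held 238 CPM of Prss53 and 422 CPM of Rnase4, where its 666 mutant B cells held 41.1 and 64.2 CPM. Ttc28 was at 146 CPM in the 34 cells of mutant A against 221 CPM in the main mutant A cluster. In the 25 cells of WT A it was at 95.3 CPM against 49.4 CPM in the main WT A cluster. For B it was at 74.2 CPM in the 16 cells of mutant B against 40.2 CPM, and at 173 CPM in the 26 cells of WT B against 297 CPM. Ak1, Rab25 and Srxn1 had at most 16 counts in any of these 4 small groups. Srxn1 in the 34 cells of mutant A, at 17.5 CPM from 3 counts, lay nearer the WT A cluster.

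Ucn3, the urocortin of mature beta cells and one of the markers that name the clusters, differed with the cluster. It was a leading gene of the main WT B cluster, as was Prss53, so its level there is in part set by the clustering. Ucn3 was at 93.2 CPM in those 34 cells of mutant A against 468 CPM in the main mutant A cluster, and at 964 CPM in those 16 cells of mutant B against 214 CPM in the main mutant B cluster. It was at 415 CPM in the 25 cells of WT A against 193 CPM in the main WT A cluster, and at 141 CPM in the 26 cells of WT B against 999 CPM in the main WT B cluster. These are small groups of cells within single libraries. Of the 34 cells of mutant A 2 shared a barcode with WT A, as did 2 of the 26 cells of WT B with mutant B, and none of the other groups did.

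**Figure D2:**
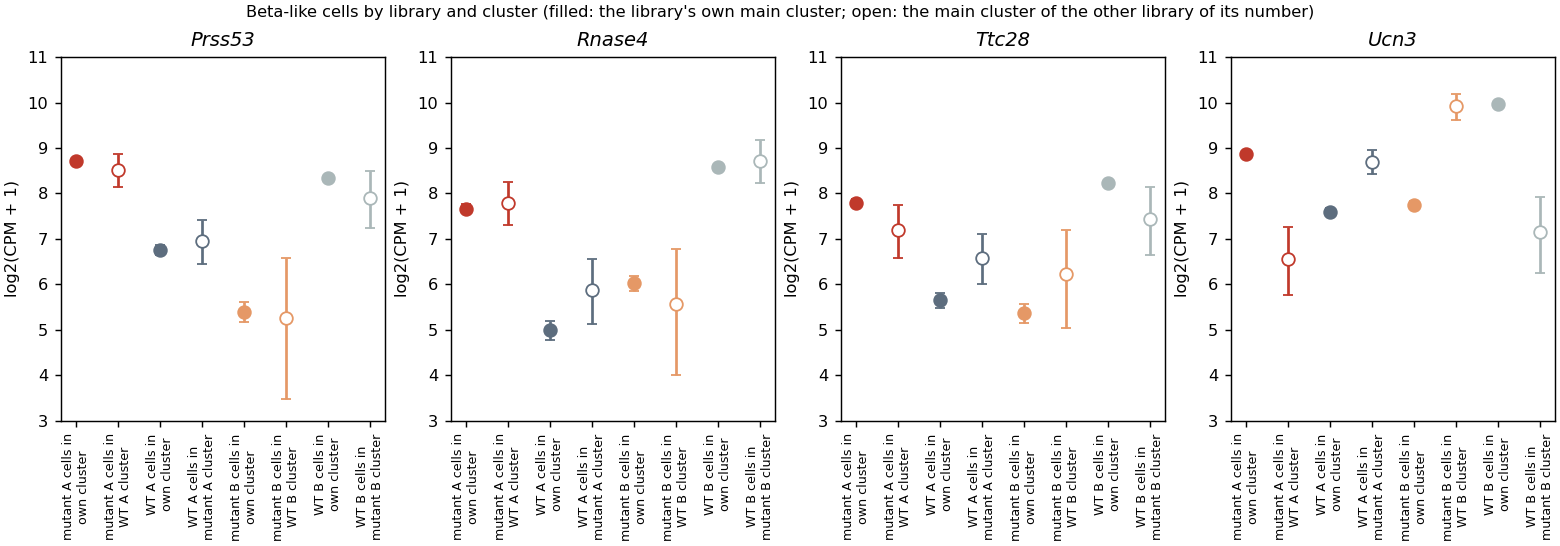
log2(CPM + 1) of Prss53, Rnase4, Ttc28 and Ucn3 in beta-like cells grouped by library and cluster, with 95% Poisson intervals. Filled points are cells in their library's own main cluster and open points cells in the main cluster of the other library of that number. Open points of Prss53, Rnase4 and Ttc28 lie nearer the filled points of the same colour, and those of Ucn3 lie nearer the cluster they fell into.

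Inside 1 library, by contrast, the 6 genes hardly went together from cell to cell in these sparse counts. The median Spearman correlation over the 15 pairs of genes was 0.035 in 426 thinned cells of mutant A, 0.00016 in 438 of WT A, 0.0080 in 628 of mutant B and 0.0089 in 550 of WT B, a mean of 0.013 ± 0.015 (SD, n = 4 libraries). Single pairs ran from -0.065 to 0.154. The highest was Prss53 with Ttc28 in mutant A, where 47.3% of cells with a Prss53 tag held a Ttc28 tag against 32.3% of those without one. Prss53 with Ak1 in mutant B was next at 0.15, resting on 8 cells with both. Prss53 with Ttc28 was at 0.00016 in WT A, 0.09 in mutant B and 0.09 in WT B.

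For scale, the correlations of a member with each of 5174 detected genes had 5% and 95% points, given as medians over the members. They were -0.08 and 0.08 in mutant A and -0.07 and 0.08 in WT A. In mutant B they were -0.06 and 0.07, and in WT B -0.07 and 0.07. Prss53 with Ttc28 lay above the 95% point in mutant A, mutant B and WT B. So did Prss53 with Ak1 and with Rab25 (0.12) in mutant B and Ttc28 with Ak1 (0.08) in WT B. All other pairs lay between the points. The counts were sparse, with a mean of 0.04 to 1.21 tags per thinned cell, which itself keeps rank correlations small. The cells of a library share its preparation, so such values describe the data and test nothing. The Fano factor, the variance over the mean, was 1.01 to 1.72 in 23 of the 24 gene and library pairs, where pure counting gives 1. The other was Rnase4 in mutant B at 4.57, the library with the single cell of 37 counts. Correlations with the cell's insulin share ran from -0.11 to 0.08 apart from Prss53 in WT A at 0.19.

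**Figure D3:**
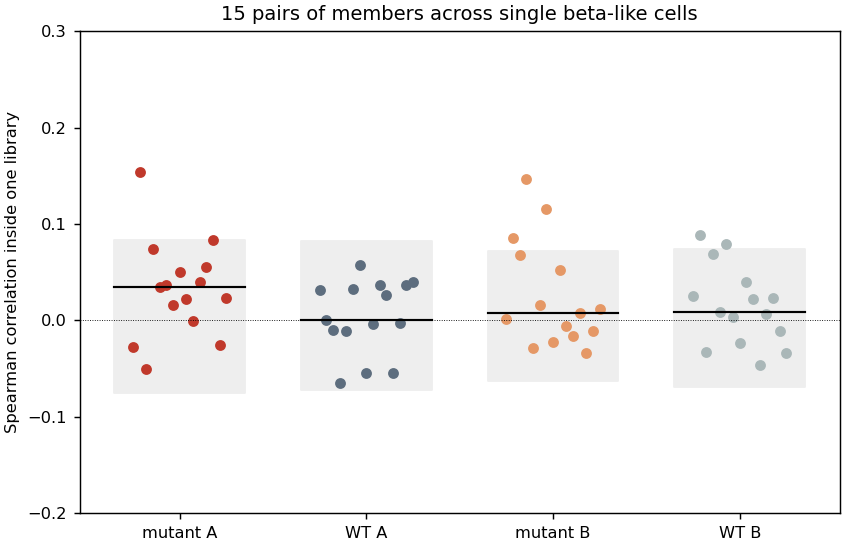
Spearman correlations of the 15 pairs of the 6 genes across thinned single beta-like cells (y axis), by library. Points are pairs, the black line their median, and the grey band the 5% to 95% range of correlations between a member and any detected gene. Most points lie in the band, and the medians lie between 0.00016 and 0.035.

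By the largest mean correlation over the 4 libraries, the genes most like Ttc28 across cells were Ucn3 (0.10), Atxn10 (0.09) and Camk2n1 (0.09), and those most like Prss53 were Inpp4b, Insrr and Maob (0.08 each). Ttr (0.09) came first for Rnase4, Zfp91 (0.08) for Ak1, Plekhj1 (0.09) for Rab25 and Bdp1 (0.08) for Srxn1. All of these are weak. Ucn3 was positive with Ttc28 in each library, at 0.09, 0.05, 0.14 and 0.11.

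Across cell classes the genes parted. Prss53 was highest in beta-like cells in 4 of 4 libraries, with a mean of 222 ± 177 CPM (SD, n = 4), followed by cycling beta-like cells at 136 ± 121 CPM and by delta-like cells at 73.7 ± 81.8 CPM, and lowest in alpha-like cells at 11.6 ± 9.06 CPM. Of the 7 classes with at least 20 cells in each library, Rnase4 was on average highest in alpha-like cells, the glucagon producers, at 327 ± 173 CPM, and above beta-like cells (170 ± 160 CPM) in 4 of 4 libraries. Ttc28 stood at 177 ± 38.0 CPM in endothelial-like, 152 ± 125 CPM in beta-like and 118 ± 19.6 CPM in mesenchymal-like cells, an order that reversed between libraries. It was lowest in alpha-like cells at 21.9 ± 9.45 CPM.

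Ak1 ran from 45.6 ± 40.1 CPM in beta-like to 17.5 ± 7.15 CPM in mesenchymal-like cells, and no neighbours in its order differed beyond their spread. Rab25 was at 50.6 ± 19.9 CPM in delta-like, 39.7 ± 31.0 CPM in beta-like and 37.3 ± 21.4 CPM in alpha-like cells, against 8.01 ± 12.3 CPM in endothelial-like cells. In ductal-like cells, an epithelium with too few cells in mutant A to be tested, Rab25 stood at 89.7, 82.7, 160.4 and 134.8 CPM. These values, from 8, 13, 119 and 66 counts, were higher than in beta-like cells of each library. The 95% Poisson interval of the 8 counts in mutant A, 3.45 to 15.8, also covers the beta-like level there. Srxn1 was at 42.3 ± 34.4 CPM in cycling beta-like and 41.2 ± 36.2 CPM in beta-like cells and at 17.0 ± 6.73 CPM in endothelial-like cells. The gap between neighbouring classes was under 1 SD over the 4 libraries for every member.

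**Figure D4:**
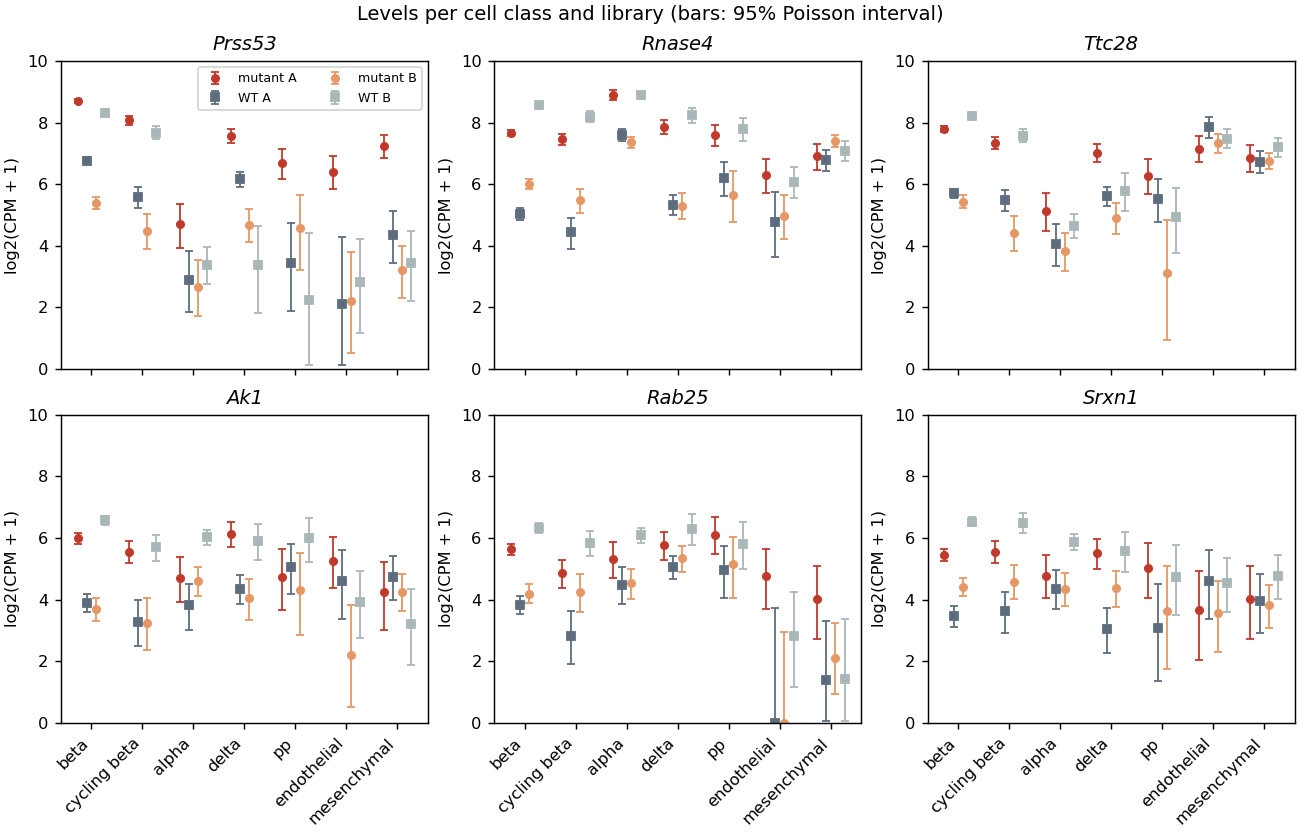
log2(CPM + 1) per cell class and library for each gene, with 95% Poisson intervals, circles for mutant and squares for WT libraries. Mutant A and WT B stand above WT A and mutant B for Rnase4 in all classes but mesenchymal-like cells, while Ttc28 runs from 141 to 229.6 CPM in endothelial-like cells and from 104 to 147 CPM in mesenchymal-like cells.

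Outside beta-like cells few members reached 20 counts in each library of a class, and these were read by the same crossing relative to the median gene. At any size 3 of 3 were crossed in cycling beta-like cells (35% of all measured genes), 2 of 2 in alpha-like (34.2%) and 3 of 3 in delta-like cells (34.5%). In endothelial-like cells 0 of 1 was crossed (26%) and in mesenchymal-like cells 1 of 2 (27.6%). In cycling beta-like cells Prss53 was at 270.1 CPM in mutant A against 47.3 CPM in WT A, and at 21.3 CPM in mutant B against 203.7 CPM in WT B. The 3 measured members there, Prss53, Rnase4 and Ttc28, were crossed by at least 2-fold, as were 1.68% of 5700 genes. Cycling beta-like cells share libraries and cell identity with the beta-like cells that chose the genes.

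Rnase4 was likewise higher within A and lower within B in 3 other endocrine classes. In alpha-like cells it was at 478 CPM in mutant A against 192 CPM in WT A and at 164 CPM in mutant B against 476 CPM in WT B, from 307, 207, 245 and 1001 counts. The log2 ratios were 1.31 within A (95% interval 1.05 to 1.57, counting error only) and -1.54 within B (-1.75 to -1.34). There 1.9% of 4831 genes were crossed by at least 2-fold, and 1 of the 2 members measured was. Insulin made up 0.303%, 1.19%, 0.0546% and 0.145% of alpha-like counts, and its part in the Rnase4 levels was not tested.

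In delta-like cells, the somatostatin producers, Rnase4 was at 232 CPM in mutant A against 39.5 CPM in WT A, and at 38.4 CPM in mutant B against 300.4 CPM in WT B. Here 2.5% of 3404 genes were crossed by 2-fold, and 1 of 3 measured members was. The class held insulin-rich cells, 43 of 94, 79 of 149, 62 of 182 and 0 of 67. Without them Rnase4 was at 271 CPM in mutant A against 58.4 CPM in WT A, and at 41.5 CPM in mutant B against 300.4 CPM in WT B. In pp-like cells it was at 193 CPM in mutant A against 72.1 CPM in WT A, and at 49.4 CPM in mutant B against 220.9 CPM in WT B, the lowest from 13 counts. No member had 20 counts per library there, and 0.638% of 1567 genes were crossed by 2-fold and 30.7% at any size. In endothelial-like cells the levels were 77.8 CPM in mutant A against 26.6 CPM in WT A, and 30.6 CPM in mutant B against 66.9 CPM in WT B, from 27, 8, 17 and 33 counts. Without 7 insulin-rich cells the level in mutant A was 49.7 CPM there.

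In mesenchymal-like cells the differences were smaller, and Rnase4 was not crossed. It was at 119 CPM in mutant A against 109 CPM in WT A, and at 169 CPM in mutant B against 136 CPM in WT B. Ttc28 was at 114 CPM in mutant A against 104 CPM in WT A, and at 108 CPM in mutant B against 147 CPM in WT B. Ttc28 was thus crossed at any size, but of these 2 measured members none was crossed by 2-fold, where 0.478% of 3136 genes were. In endothelial-like cells Ttc28 was at 141 CPM in mutant A against 229.6 CPM in WT A, and at 160.3 CPM in mutant B against 178 CPM in WT B, so it was lower in the mutant library both times (0.206% of 2428 genes crossed by 2-fold). Within B the 95% counting interval of its log2 ratio, -0.60 to 0.29, included 0. The difference between classes was not tested. Macrophage-like cells, with 9 to 27 cells per library, held 152, 808, 1066 and 700.3 CPM of Rnase4.

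Prss53 outside beta-like cells was high in mutant A in several classes. In endothelial-like cells it was at 83.6 CPM in mutant A against 3.33 CPM in WT A, and at 3.60 CPM in mutant B against 6.08 CPM in WT B, and in mesenchymal-like cells at 149.6 CPM in mutant A against 19.3 CPM in WT A and at 8.22 CPM in mutant B against 9.92 CPM in WT B. Insulin made up 5.79% and 9.12% of the counts of these classes in mutant A, against at most 1.18% in the other libraries. In endothelial-like cells Prss53 had 29, 1, 2 and 3 counts. At the beta-like ratio of Prss53 to insulin 29.1, 0.386, 0.224 and 2.17 were expected. In mesenchymal-like cells it had 59, 12, 10 and 6 counts, against 52.1, 5.23, 1.34 and 5.99 expected. The lower 95% Poisson limit lay above the expected count in endothelial-like cells of mutant B and mesenchymal-like cells of WT A and mutant B. The source of these tags was not tested. In delta-like cells Prss53 was at 190.0 CPM in mutant A against 70.7 CPM in WT A, and at 24.8 CPM in mutant B against 9.39 CPM in WT B, so it was higher in the mutant library both times. Within B this rested on 29 and 4 counts, and the 95% counting interval of the log2 ratio, -0.11 to 3.37, included 0. Without insulin-rich cells the delta-like levels were 71.0 CPM in mutant A against 15.9 CPM in WT A, and 13.3 CPM in mutant B against 9.39 CPM in WT B. The values within B then came from 9 and 4 counts. Without 12 insulin-rich cells of 66, Prss53 in mesenchymal-like cells of mutant A was at 16.2 CPM.

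For the 6 classes outside beta-like cells, edgeR's quasi-likelihood test over all genes set the mutant libraries against the WT libraries. No gene passed a Benjamini-Hochberg adjusted p of 0.05 in any of them (0% of 5265 to 10571 genes), by edgeR or by DESeq2, although 9 to 50 genes per class had an unadjusted edgeR p under 0.05. All 28 fits of a member had adjusted p = 1.0. The members were chosen for opposite signs within A and within B in beta-like cells of these libraries. In 25 of 36 pairs of member and class outside beta-like cells, mutant A and WT B also stood above WT A and mutant B. The 2 libraries of a label then average out, so these fits cannot show whether the members differ by genotype. Rnase4 differed by -0.14 ± 0.65 (SE, log2) in alpha-like cells and by 0.30 ± 0.41 in mesenchymal-like cells. Ttc28 in endothelial-like cells differed by -0.34 ± 0.40. Prss53 in mesenchymal-like cells gave the lowest unadjusted p, 0.093, at 2.42 ± 1.24. On simulated alpha-like sums with the fitted dispersion the test recovered 14 of 179 genes set 4-fold apart, and on endothelial-like sums 61 of 172, so a count of 0 does not show that genes did not differ. Left without mutant B, mutant A alone against both WT libraries gave Prss53 log2 differences of 3.80 in pp-like, 4.06 in endothelial-like and 3.36 in mesenchymal-like cells. There 0.161%, 1.39% and 2.64% of genes, Prss53 among them, were called by edgeR. These calls rest on 1 mutant library, which is assumed to vary like the WT libraries. Prss53 was chosen for being high in mutant A and low in mutant B in beta-like cells. Leaving out mutant B keeps the mutant library in which it was high, so its calls cannot show a difference by genotype. In mesenchymal-like cells its log2 difference was -0.75 without mutant A, 2.92 without WT A and 2.02 without WT B. Insulin made up 7.65%, 5.79% and 9.12% of pp-like, endothelial-like and mesenchymal-like counts in mutant A, against at most 3.07% in the other libraries. The part of insulin in the calls was not tested.

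Genes related to the members by function or place were read in beta-like cells as changes relative to the median gene. Of 76 such genes with 20 counts in each library 3 were crossed by at least 2-fold, namely Tmprss4 and Hpn, both membrane serine proteases, and Ucn3, beside the 3.22% of all genes. Ucn3 had been picked earlier on these samples and is no independent evidence. Tmprss4 was at 29.7 CPM in mutant A against 9.16 CPM in WT A, and at 4.54 CPM in mutant B against 34.1 CPM in WT B. Hpn, from 43, 25, 21 and 69 counts, was named after its values were seen. With at least 50 counts per library 1 gene was left. The other serine proteases, 5 of 7, were not crossed by 2-fold, Htra2 being at 12.7 CPM in mutant A against 22.5 CPM in WT A, and at 47.6 CPM in mutant B against 26.9 CPM in WT B.

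Srxn1 was set beside 17 measured genes of a list of peroxiredoxins and Nrf2 targets that also holds Nfe2l2 and Keap1. Of these, 3 were higher and 14 lower within A, and 12 higher and 5 lower within B, with medians of -0.32 and 0.35 (log2). In all 2 of the 17 were crossed and 11 had the reverse order, as did 3758 and 3757 of the 9933 measured genes. Prdx3, the mitochondrial peroxiredoxin, was at 82.9 CPM in mutant A against 343.9 CPM in WT A, and at 295.9 CPM in mutant B against 122.6 CPM in WT B. Prdx6 was at 143.6 CPM in mutant A against 325.5 CPM in WT A, and at 338.9 CPM in mutant B against 234.1 CPM in WT B. Both stood opposite to Srxn1 within A and within B. The 2 crossed genes, Slc7a11 (1.04 within A and -0.36 within B) and Keap1 (0.41 and -0.19), had the order of Srxn1. They were named after their values were seen.

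The Rab11 group of 12 genes split 5 higher and 7 lower within A and 6 and 6 within B. Rab11a, which gives the group its name, was at 118 CPM in mutant A against 206.6 CPM in WT A, and at 310.6 CPM in mutant B against 205 CPM in WT B. Adenylate and creatine kinases split 3 and 3 within A, and all 6 were lower within B. Cytokinesis genes split 5 and 1 within A and 1 and 5 within B, none by 2-fold in both. Racgap1 among them was at 18.4 CPM in mutant A against 26.5 CPM in WT A, and at 30.9 CPM in mutant B against 37.3 CPM in WT B.

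At the loci themselves, Ang, which overlaps Rnase4, was at 12.1 CPM in mutant A against 2.25 CPM in WT A, and at 7.13 CPM in mutant B against 24.1 CPM in WT B, from 57, 14, 33 and 97 counts. It thus had the order of Rnase4, below the minimum of 20 counts in WT A. The ribonuclease inhibitor Rnh1 was at 67.9 CPM in mutant A against 77.9 CPM in WT A, and at 31.1 CPM in mutant B against 38.8 CPM in WT B. Plxnb2, a receptor of angiogenin, was at 129 CPM in mutant A against 149.8 CPM in WT A, and at 110.2 CPM in mutant B against 133 CPM in WT B. Of 11 neighbours of Prss53, 8 were higher, 2 lower and 1 level with the median gene within A, and 4 higher and 7 lower within B, with none crossed by 2-fold. Zfp646, which overlaps the end of Prss53 on the other strand, was at 21.8 CPM in mutant A against 10.3 CPM in WT A, and at 6.27 CPM in mutant B against 10.2 CPM in WT B. The sources used here do not state whether counting used strand, and Zfp646 was named after its values were seen. Vkorc1 was at 81.9 CPM in mutant A against 114 CPM in WT A, and at 47.1 CPM in mutant B against 44.5 CPM in WT B.

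The 11 genes of beta cell maturity with 20 counts in each library split 7 and 4 within A and 5 and 6 within B. Of these Ucn3 alone was crossed by 2-fold, at 456 CPM in mutant A against 202 CPM in WT A, and at 238 CPM in mutant B against 978 CPM in WT B. Syt4 missed the minimum with 7 counts in WT A and 4 in mutant B. It was at 36.5 CPM in mutant A against 1.12 CPM in WT A, and at 0.865 CPM in mutant B against 53.0 CPM in WT B. Mafa and Glp1r, also below the minimum, had at most 13 counts. Slc2a2, the glucose transporter of beta cells, was at 629.8 CPM in mutant A against 714 CPM in WT A, and at 789.6 CPM in mutant B against 852 CPM in WT B. Of 5 genes of immature beta cells 1 was higher and 4 were lower within A, and 4 were higher and 1 lower within B. Dlk1 was at 272 CPM in mutant A against 642 CPM in WT A, and at 332.9 CPM in mutant B against 135 CPM in WT B, the reverse order of the 6 genes. Slc2a2 and Syt4 were named after their values were seen. Insrr and Spp1 had likewise been picked earlier on these samples. Insrr was at 97.8 CPM in mutant A against 14.5 CPM in WT A, and at 19.7 CPM in mutant B against 169 CPM in WT B. Spp1, with the reverse order, was at 15.1 CPM in mutant A against 123 CPM in WT A, and at 256 CPM in mutant B against 13.4 CPM in WT B.

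Over the 28 sums of class and library, levels as log2(CPM + 1) paired differently from the cell-level values. Rnase4 went with Srxn1 (Pearson r = 0.72) and Ak1 (0.70), and Ak1 with Rab25 (0.67), while Prss53 with Rnase4 was at 0.18 and Ttc28 with Rab25 at -0.30. Genes most like Prss53 were Palm3 (0.93), Defb9 and Npy (0.91 each). Rab25 was most like Mrln, Tmem30b and Celf4 (0.93 each). Zfp959 and AI314180 (0.79 each) and Wnt4 (0.77) came first for Rnase4, B3galt5 (0.83) for Ttc28, Plekhb2 (0.74) for Ak1 and Irak1 (0.80) for Srxn1. The 28 sums share 4 libraries and 7 classes and include the beta-like sums on which the members were chosen. Positive correlations between members are thus in part set by that choice, and these values are a description.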

How the data were processed

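Whole-number counts per gene and barcode were deposited by the authors for 4 inDrop libraries, not normalized, per the labels' protocols and the values. Builds GRCm38 and GRCh38 are listed, per the submitters' processing notes. The sources used here do not name an aligner, a counter, an annotation or how molecular barcodes were handled. Files held 9282495, 12835199, 12236110 and 10350699 counts in 1323, 1302, 2445 and 1878 barcodes (mutant A, WT A, mutant B, WT B).

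Barcodes with at least 500 counts, 250 genes and at most 25% mitochondrial counts were kept, and Scrublet (scanpy 1.11.5) removed 3, 13, 17 and 7 doublets, a low share. Counts scaled to 10000 per cell, 2000 variable genes, 30 components and 15 neighbours gave Leiden clusters (resolution 1, seed 1) with no correction between libraries. Clusters took the class of highest marker score with at least 3 detected markers. Those under 0.333 of their libraries' median depth stayed unnamed, a rule made stricter after the data were seen. It left out 278 cells scored as beta.

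Counts were summed per library and class with at least 20 cells each. CPM carry exact 95% Poisson intervals. edgeR 4.0.16 (quasi-likelihood, TMM, low-count filter) was the test, checked on simulated data, with DESeq2 1.42.0 as an alternative. SEs are the log2 difference over the square root of edgeR's F. Correlations used cells thinned to 3000 counts. Insulin-rich cells had 0.5 or more of their library's beta-like median insulin share. A gene is crossed when it is higher within A and lower within B relative to the median gene.

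With 2 libraries per label, p-values measure the spread between libraries, which may be technical. Members and lists were chosen with earlier results of these data known. Named were the members, Sin3a, the insulin genes, earlier crossed genes, the 3 genes most like each member by 2 measures, and the 2 most abundant of each list.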

Additional observations from a re-analysis of the deposited data

Results flagged for a closer look

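Over the 5 classes with at least 20 cells per library other than beta-like and cycling beta-like cells, 29 pairs of member and class had a count in each library. In 6 of them the log2 ratio of mutant to WT was at least 1 in size with opposite signs within A and within B, and both counting intervals excluded 0. The same held for 1489 of 65077 pairs of any gene and class (2.29%), the opposite direction included, and genes are not independent. Those pairs include genes with few counts, whose wide intervals rarely exclude 0. The members were chosen for this crossing in beta-like cells of the same libraries, so setting them beside that share tests nothing. Title numbers are not said to be groups, and the difference between A and B was not tested. Rnase4 was at 1.31 within A and -1.54 within B in alpha-like cells, and at 2.55 and -2.97 in delta-like cells. It was at 1.42 within A and -2.16 within B in pp-like cells, and at 1.55 and -1.13 in endothelial-like cells. Ak1 in delta-like cells was at 1.82 within A and -1.93 within B, and Srxn1 there at 2.61 within A and -1.26 within B, from 34, 13, 23 and 20 counts. Without insulin-rich cells Srxn1 there had 9 counts in mutant A and 5 in WT A. Rnase4 in endothelial-like cells was then at 49.7 CPM in mutant A against 26.6 CPM in WT A, under 2-fold.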

How the results depend on the processing

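The members were chosen for their beta-like pattern, so its sign under other settings is no support. The size of their log2 ratios ran from 1.67 to 3.06 over the settings tried, 2 of which, adding the low-depth cluster and using main clusters only, were chosen after the data were seen. Keeping members among the variable genes changed nothing, since none was variable. Outside beta-like cells, leaving out insulin-rich cells ended the order mutant A and WT B above WT A and mutant B for Ttc28 in delta-like and Srxn1 in mesenchymal-like cells, and gave it to Ttc28 in pp-like and Rab25 in mesenchymal-like cells. The mean within-library correlation was -0.0066 when cells were thinned to 2000 counts and 0.033 with no thinning, and 0.0057 to 0.017 without 1 library; the cause was not tested. Companion genes crossed by 2-fold fell to 1 with a minimum of 50 counts, which tests fewer genes.

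Genes called by edgeR outside beta-like cells numbered 0 in the main comparison and with the title number as a replicate block, in each class. Same-numbered deviations correlated at 0.04 in cycling beta-like to 0.39 in mesenchymal-like cells over 2 pairs, and the labels do not say what the number marks. With no low-count filter 24 genes were called in endothelial-like and 16 in mesenchymal-like cells. Leaving out 1 library, where the lone library is assumed to vary like the other group, gave 0 to 2 calls in alpha-like, 0 to 42 in cycling beta-like, 0 to 15 in delta-like, 0 to 11 in pp-like, 3 to 101 in endothelial-like and 0 to 250 in mesenchymal-like cells. The cause was not tested. The log2 difference of Rnase4 in alpha-like cells ran from -0.999 without mutant A to 0.75 without WT B, and was 0.32 without mutant B. In mesenchymal-like cells it ran from -0.015 without mutant B to 0.53 without mutant A, and that of Prss53 from -0.75 without mutant A to 3.36 without mutant B.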
